A study of Mus musculus with 4 samples.

Results

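The expression of all genes in regulatory T (Treg) cells of visceral fat was compared between mice fed a high-fat diet (HFD) and mice fed normal chow (NCD). The comparison used the 9449 cells of the diet pool that met the following rule, of 11456 barcodes in that pool and 20492 in the series. A barcode was kept when it had 500 or more genes, under 10% of its counts from mitochondrially encoded genes, no count of Cd79a (B cells), Lyz2 (macrophages) or Cd8a (CD8 T cells), and 1 hashtag at 90% or more of at least 10 hashtag counts. Hashtags are oligonucleotides on antibodies that mark the cells of a condition before mixing, and these are the letters by which each cell was assigned to its diet.
Hashtag 3, NCD, 4938 cells: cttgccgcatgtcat
Hashtag 4, HFD, 4511 cells: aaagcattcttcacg

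All diet-pool mice were male, 23 to 27 weeks old, and carried the Foxp3thy1.1 and PpargTdt alleles, with 5 mice on each diet for 22 weeks. Live CD3+ CD4+ Foxp3+ cells were sorted, and the diets were then mixed in equal parts and captured in 1 droplet run, so both share whatever free RNA that run held. A second pool of the series held Treg cells from 25-week-old male Foxp3YFP-cre mice, 4 with Srebf2WT/WT (WT) and 4 with Srebf2flox/flox (KO), and its levels are set beside some results. Each diet is 1 pooled group of mice under 1 hashtag. There is therefore 1 sample per diet, no replicate and no test, and the 95% intervals below cover counting error only, leaving out the spread between mice.

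Treg cells restrain other immune cells and depend on the transcription factor Foxp3. In visceral fat of lean adult mice many of them display ST2, the Il1rl1-encoded interleukin-33 receptor, together with the lipid-sensing nuclear receptor Pparg and the transcription factor Gata3. Treg cells that recirculate through lymphoid organs instead carry the homing receptor Ccr7 and the transcription factor Tcf7. The title of the series places the comparison in the question of how obesity acts on the ST2-high cells.

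The droplet chemistry counts each captured RNA molecule once through a unique molecular identifier (UMI). NCD cells gave 22200627 UMIs (median 3989 per cell) and HFD cells 18540908 (median 3194), so shares of cells are given after each cell was thinned to 2000 UMIs, which left out 286 NCD and 711 HFD cells. Of the barcodes with a clear hashtag, 10.5% of NCD and 6.17% of HFD barcodes had a count of Cd79a, Lyz2 or Cd8a and were left out. Another 955 barcodes carried both hashtags. At least 1 UMI of 6 Treg markers was found in 99.2% of NCD and 97.2% of HFD cells. Foxp3 itself, at 213 CPM (counts per 1000000 of the summed counts) in NCD and 162 CPM in HFD, was seen at full depth in 53.7% and 40.5% of cells. No B cell of the pool had a Foxp3 UMI, of 107 NCD and 62 HFD B cells at medians of 4091 and 2934.5 UMIs, which by a floor of 3 counts allows shares of up to 2.80% and 4.84%. These B cells were chosen to hold no Cd3 UMI, which may lower this and the later B cell shares of free T cell RNA. The 4 neutrophil markers were at 0 in both diets, and the 8 macrophage markers summed to 6.89 CPM on chow and 9.22 CPM on HFD. Stromal markers summed to 18.2 CPM in 134 NCD cells and 113 CPM in 69 HFD cells, and erythroid markers to 73.3 and 247 CPM. An alternative below leaves out cells with a UMI of any of 22 marker genes, Col3a1 and Hbb-bs among them. The part of the stromal and erythroid markers alone was not tested. The 2 pools shared 135 barcode sequences, of which 87 belonged to kept cells in both.

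Of the 10024 genes that reached 5 CPM in the diet with the higher level, 1247 (12.4%) were higher in HFD by 1.5-fold or more and 941 (9.39%) lower. The interval of each of these excluded equal levels. At sums of this size any gene past both bounds has such an interval, so the intervals add no support to the calls. The median log2 ratio of HFD over NCD was 0.08 over all 10024 genes. By 4-fold or more, 205 genes were higher and 183 lower. Both diets are sums over many cells, so fewer cells of a kind and less RNA per cell cannot be told apart in these ratios. The plot of all genes shows that low ratios reach well into the abundant genes, whereas high ratios become smaller there.

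**Figure D1:**
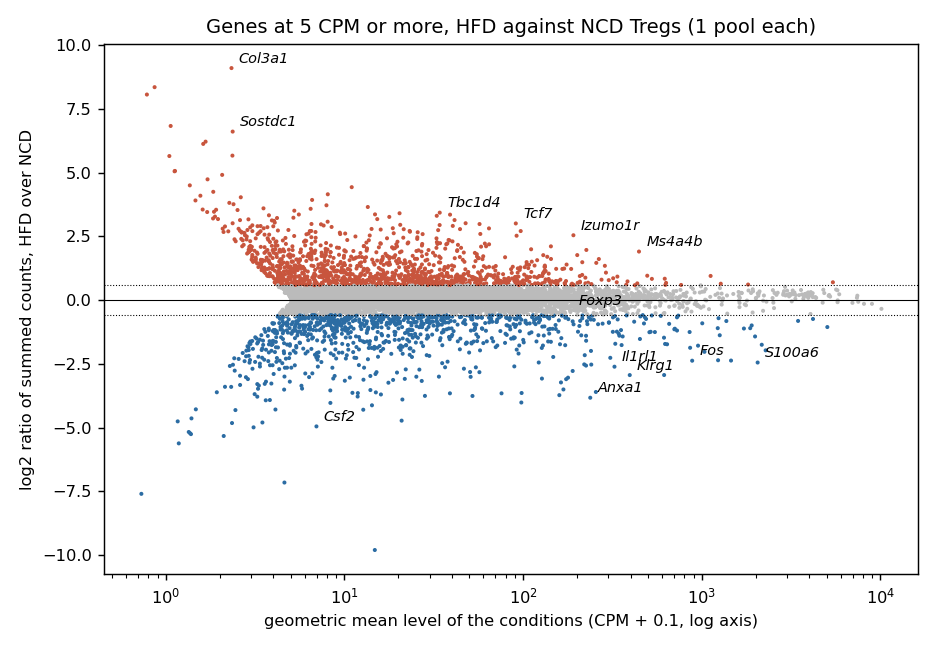
Log2 ratio of HFD over NCD summed counts (vertical axis) against the geometric mean of both levels in CPM, each with a small constant added (horizontal log axis) for 10024 genes, antigen receptor and immunoglobulin genes included. Red dots are 1247 genes higher by 1.5-fold or more, blue dots 941 genes lower, and dotted lines mark that fold; Klrg1 and Anxa1 lie far below 0 at a mean level of over 100 CPM, and Col3a1 rests on 5 HFD cells.

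Among genes at 500 CPM or more, 10 with the lowest ratios were led by tissue-effector genes. Anxa1, the calcium-binding annexin A1, was at 896 CPM on chow and 62.9 CPM on HFD (log2 ratio -3.83, interval -3.92 to -3.75), against 700 CPM in the WT cells of the other pool. Ltb4r1, the leukotriene B4 receptor, was at 581 and 43.7 CPM (-3.73). Klrg1, an inhibitory lectin receptor of effector lymphocytes (chromosome 6, 122270596 to 122282833 in GRCm38.p6), was at 1096 and 143 CPM (-2.94, interval -3.00 to -2.88), against 1099 CPM in WT. The others were Frmd5 (-3.51), the chemokine receptor Cxcr6 (-3.10), galectin-3 (Lgals3, -3.04), the neutrophil-attracting chemokine Cxcl2 (-2.94), Il1rl1, Egr1 and Hspa1b. HFD was the low sample in each, and WT cells held between 295 CPM (Egr1) and 2548 CPM (Cxcl2) of these genes.

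The highest ratios among genes at 500 CPM or more were smaller. Ms4a4b, a membrane protein of T cells, was at 230 CPM on chow and 863 CPM on HFD (1.91, interval 1.86 to 1.95), with a UMI in 18.7% and 69.3% of thinned cells. After it came Limd2 (0.96), the histone variant H2afz (0.95), lymphotoxin beta (Ltb, 0.84), the chromatin protein Hmgb2 (0.84) and thymosin beta 10 (Tmsb10, 0.70). Ifi27l2a (0.68), Fyb (0.66), mt-Cytb (0.65) and Rpl28 (0.61) completed the 10.

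Genes at 20 CPM or more were ranked with antigen receptor segments and immunoglobulin genes left out. The lowest ratio in this ranking was that of Csf2, the growth factor GM-CSF. It was at 37.7 CPM on chow and 1.19 CPM on HFD (-4.96, interval -5.67 to -4.38), with 22 UMIs in HFD. Wipf3, a regulator of actin assembly, was at 107 and 3.99 CPM (-4.73). Further down came Olfr1259 (-4.13), Fam183b (-4.03), AA467197 (-4.02), the chemokine receptor Ccr1 (-3.90), the platelet-activating factor receptor Ptafr (-3.78), 1700061F12Rik (-3.76), Bace2 (-3.76), Sytl3 (-3.66), Pxdc1 (-3.65), Atf3 (-3.65) and the neuromedin U receptor Nmur1 (-3.64).

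The highest ratio of the same ranking, of the collagen gene Col3a1 (9.11), rested on 5 HFD cells. Sparc (4.16), another matrix gene, had 98.1% of its HFD UMIs in 5 cells. In all, 21 of the 1247 higher and 16 of the 941 lower genes had over 50% of their UMIs in 5 cells of the higher diet. Igfbp4, which binds insulin-like growth factors, was at 2.12 CPM on chow and 28.3 CPM on HFD (3.72), and Dtx1, a Notch-pathway ubiquitin ligase, at 1.80 and 21.9 CPM (3.59). Tbc1d4, a Rab regulator of glucose transporter traffic, was at 10.3 and 112 CPM (3.44, interval 3.24 to 3.64). Lrig1, a feedback inhibitor of growth factor receptors, was at 10.4 and 103 CPM (3.31). Gm49180 (3.94), Ttn (3.66), Iigp1 (3.41), Nsg2 (3.37), Rflnb (3.27), Actn1 (3.18), Ccr7 (3.15) and B630019A10Rik (3.08) were also among the 15 highest.

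The ST2-high adipose Treg program had 13 of 20 members lower in HFD, 4 higher and 3 within 1.5-fold, with a median log2 ratio of -1.42. Il1rl1 (chromosome 1, 40404864 to 40465418 in GRCm38.p6) was at 803 CPM in NCD (interval 791 to 815) and 131 CPM in HFD (126 to 137), a log2 ratio of -2.61, and at 691 CPM in WT against 565 CPM in KO. Pparg was at 71.2 CPM on chow and 8.85 CPM on HFD (-3.01, interval -3.25 to -2.78), and at 117 CPM in WT. Both genes were low in HFD alone among the 4 conditions. Cyp11a1, the cholesterol side-chain cleaving enzyme, had the lowest ratio of the list (-3.53), and the eosinophil-type chemokine receptor Ccr3 stood at -3.00. Fgl2, a secreted suppressor protein, was at -2.53, the monocyte-type chemokine receptor Ccr2 at -2.52, the anti-inflammatory cytokine Il10 at -2.47 and the repair factor Areg at -2.37. Gata3 was at 591 and 220 CPM (-1.42). The 4 higher members were Gpr55 (1.65), the TGF-beta-activating integrin Itgb8 (1.34), Cd36 (0.82), which takes up fatty acids, and the transcription factor Batf (0.74).

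After thinning, 67.3% of NCD cells (interval 65.9 to 68.6) and 14.5% of HFD cells (13.4 to 15.7) had an Il1rl1 UMI. At full depth the shares were 78.1% and 17.6%, against 3.74% of NCD and 1.61% of HFD B cells of the pool. Cells with an Il1rl1 UMI held 4.62 Il1rl1 UMIs each in NCD and 3.07 in HFD, and 14.9% and 39.3% of them held just 1. A Klrg1 UMI was found in 77.1% of thinned NCD and 12.9% of thinned HFD cells. Its full-depth shares were 83.6% and 15.6%, against 0 of 107 NCD and 1.61% of HFD B cells at full depth. The shares of cells with an Il1rl1 or a Klrg1 UMI were lower in HFD at both depths.

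**Figure D2:**
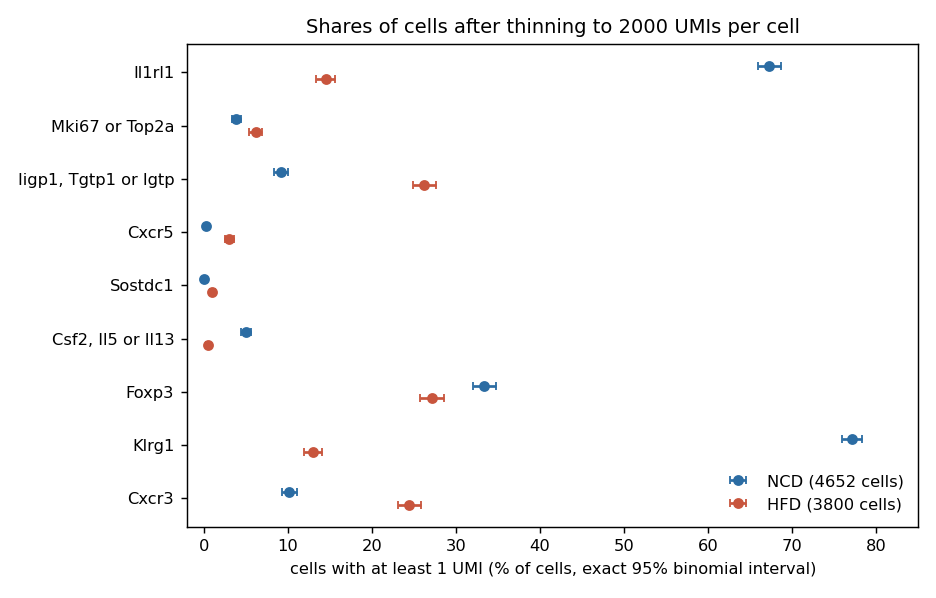
Share of cells with at least 1 UMI of the named gene, or of any gene of the named group, after thinning to 2000 UMIs (4652 NCD cells in blue, 3800 HFD cells in red), with exact 95% binomial intervals for counting error. Il1rl1 and Klrg1 lie far to the right in NCD, and Cxcr3 and the group of Iigp1, Tgtp1 and Igtp lie further to the right in HFD.

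Effector cytokines were low in HFD in 4 of the 5 members at 5 CPM or more. Il13 was at 10.2 CPM on chow and 0.485 CPM on HFD (-4.32), and Il5, which sustains eosinophils, at 17.4 and 0.863 CPM (-4.29). Csf2 is given above. Few cells held the Il13 counts, 58.4% of which in NCD came from 5 cells. Tnf was at 120 and 58.8 CPM (-1.03), and Ifng, the type 1 cytokine, at 31.5 and 23.1 CPM (-0.45), inside the 1.5-fold bound. A UMI of Csf2, Il5 or Il13 was found in 4.99% of thinned NCD cells (4.38 to 5.65) and 0.474% of thinned HFD cells (0.281 to 0.748).

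Resting and lymphoid-homing genes were higher in HFD in 12 of 15 members, with 1 lower and a median log2 ratio of 1.49. Ccr7, the chemokine receptor for lymph node entry, was at 13.8 and 123 CPM (3.15), and Tcf7, which encodes the transcription factor TCF-1, at 32.0 and 258 CPM (3.01). WT cells held 14.4 CPM of Ccr7, close to NCD. The proto-oncogene Myb (3.54), the chromatin organizer Satb1 (2.92) and the repressor Bach2 (2.22) were also higher. Klf2 (0.06) and Il7r (-0.45) lay within 1.5-fold, and the gut-homing receptor Ccr9 was lower (-2.43). A Tcf7 UMI was found in 4.79% of thinned NCD cells (4.20 to 5.45) and 35.3% of thinned HFD cells (33.8 to 36.9). At full depth the Tcf7 shares were 7.86% and 47.3%, against 2.80% of NCD and 0 of 62 HFD B cells.

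Treg core genes had 10 of 20 members higher in HFD and 2 lower (median 0.54). The lower ones were Il2ra, the high-affinity chain of the interleukin-2 receptor, at 656 CPM on chow and 193 CPM on HFD (-1.76), and the actin-capping gene Capg (-0.91). Foxp3 was within 1.5-fold (-0.39, interval -0.46 to -0.33), as was the transcription factor Ikzf2, at 765 and 1040 CPM (0.44). The integrin Itgae, which binds E-cadherin, was at 3.69 and 23.3 CPM (2.65). The folate receptor Izumo1r was at 79.0 and 462 CPM (2.55), the TGF-beta docking receptor Lrrc32 at 9.05 and 49.7 CPM (2.45), the adenosine-producing ectoenzyme Nt5e at 18.0 and 89.3 CPM (2.31) and Gpr83 at 4.28 and 15.9 CPM (1.88). The costimulatory receptor Icos (1.49) and the neuropilin Nrp1 (1.23) were higher as well.

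Signalling by interleukin-2 showed members in both directions, 4 higher and 4 lower of 17. The lower ones were Il9r (-2.10), the feedback inhibitors Socs2 (-1.94) and Cish (-1.40), and Il2ra. Stat5b, which carries the signal to the nucleus, was at 69.5 and 206 CPM (1.57), Stat5a stood at 1.30 and Socs3 at 1.21, and the survival gene Bcl2 was also higher. In the interleukin-1 and interleukin-18 receptor family, the decoy receptor Il1r2 was at 8.11 CPM on chow and 56.0 CPM on HFD (2.79) and Il18r1 at 55.5 and 138 CPM (1.31), against the low ratio of Il1rl1.

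Chemokine receptors divided into 7 higher and 6 lower of 18. Lower ones included Ccr1, Cxcr6, Ccr3, Ccr2 and Ccr9. Higher were Cxcr5 (3.24), Ccr7, Ccr6 (2.47), the oxysterol receptor Gpr183 (1.39), Cxcr3 (1.36), S1pr1 (1.26), which lets lymphocytes leave tissue, and Ccr8 (0.90). Cxcr3, the receptor for interferon-induced chemokines, had a UMI in 10.2% of thinned NCD cells (9.31 to 11.1) and 24.4% of thinned HFD cells (23.1 to 25.8). In the rest of the type 1 program Il18r1 was higher, and Cxcr6, Gzmb (-1.65), Il12rb1 (-1.05) and Il18rap (-0.65) were lower. The lineage factor Tbx21 (0.07) and the chemokine Ccl5 (0.08) stood at nearly equal levels. Of the 6 type 3 genes, Ccr6 and Ahr (1.49) were higher and the ion channel genes Tmem176b (-2.82) and Tmem176a (-2.73), with Rora (-0.62), were lower.

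Genes of follicular regulatory cells, which act in lymph node germinal centres, had 10 of 11 members higher in HFD and 1 lower (Tox2, -1.21), at a median of 2.60. Cxcr5, the follicle-homing receptor, was at 1.62 CPM on chow and 15.5 CPM on HFD (3.24, interval 2.75 to 3.80), with a UMI in 0.236% and 3.03% of thinned cells. Cd200 (2.77), Sh2d1a (2.71), Btla (2.63) and Slamf6 (2.60) were higher, whereas Bcl6, the lineage factor, stood at 27.7 and 43.6 CPM (0.66). Sostdc1, a secreted antagonist of Wnt and BMP signals, had 4 UMIs in 3 NCD cells and 369 UMIs in 47 HFD cells (0.180 and 19.9 CPM), and was listed at 0 in the other pool. After thinning, a Sostdc1 UMI was in 0 of 4652 NCD cells, which by a floor of 3 counts allows a share of up to 0.0645%, and in 0.974% of HFD cells (0.686 to 1.34).

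The 47 HFD cells with Sostdc1 were set against the other 4464 HFD cells, a group chosen after its values were seen. Lag3, an inhibitory receptor, was at 391 CPM in them and 33.5 CPM in the rest (3.56, interval 3.21 to 3.88). Cd200 was at 237 and 39.0 CPM (2.61), Btla at 155 and 45.3 CPM (1.79), Nt5e at 287 and 86.9 CPM (1.73) and Bcl6 at 109 and 42.8 CPM (1.38). Each of these 5 genes was higher in the cells with Sostdc1. Il21, a cytokine of follicular helper cells, was at 63.7 and 0.382 CPM, with a UMI in 8.51% and 0.112% of cells. Few cells held it, as 81.0% of its 21 HFD UMIs were in 5 cells. Foxp3 was at 63.7 and 163 CPM (-1.31), with a UMI in 21.3% and 40.7% of cells, and Il2ra at 41.0 and 195 CPM (-2.17), so the Treg label was less well borne out in these 47 cells. Ikzf2 was at 1411 and 1035 CPM (0.45).

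Among inhibitory receptors and ectoenzymes 7 of 13 were higher and 1, Cd200r1 (-2.23), was lower. Lag3 was at 8.92 CPM on chow and 37.7 CPM on HFD (2.08), and Cd160 stood at 1.97. In the TNF family 9 of 20 were higher and 3 lower: lymphotoxin alpha (Lta, 2.87), the CD30 ligand Tnfsf8 (2.17), the death receptor Fas (1.66) and the costimulatory receptor Tnfrsf9 (1.31) against Tnfsf9 (-1.37), Tnfsf14 and Tnf. Tnfrsf9 and its ligand Tnfsf9 thus lay on opposite sides. Of 15 TGF-beta pathway genes 5 were higher, including Tgfbr3 (3.55), Lrrc32, Itgb8, the inhibitory Smad7 (1.04) and Smurf2 (0.70), and 1, Bambi (-0.67), was lower. Integrins and adhesion genes were mixed at 6 higher and 7 lower of 18, with Itgae, Cd96 (2.36) and Itgb1 (1.35) high and Itga1 (-2.29), Itga2 (-1.50) and Cd44 (-1.24) low.

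Antigen receptor signalling genes had 9 of 22 members higher and 0 lower (median 0.45), with the kinase Txk (2.47), Themis (1.65), the phosphatase Ptpn6 (1.32) and Cd28 (0.88) at the top. Of genes that respond early to that receptor, 11 of 17 were lower and 4 higher (median -1.24). Egr1, a zinc-finger factor induced by growth and receptor signals, was at 891 CPM on chow and 73.2 CPM on HFD (-3.60), against 295 CPM in WT. Ier3 was at 87.0 and 16.3 CPM (-2.41), Nr4a1, an orphan nuclear receptor, at 1646 and 450 CPM (-1.87), and Cd69, a retention and activation marker, at 764 and 266 CPM (-1.52). The 4 higher members were Tnfrsf9, Dusp4 (1.14), Egr2 (1.13) and Dusp2 (0.94).

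AP-1 and dissociation response genes, which also react to the preparation of cells, had 15 of 16 members lower and 0 higher (median -1.34). Together they made up 2.79% of NCD counts, 1.11% of HFD counts and 3.17% of WT counts. Atf3 was at 347 and 27.7 CPM (-3.65), Fosb at 496 and 72.2 CPM (-2.78), Fos at 2015 and 388 CPM (-2.38) and the mRNA-decay factor Zfp36 at 2796 and 545 CPM (-2.36). The inducible chaperones Hspa1b (-2.57) and Hspa1a (-2.45), near-identical copies whose counts may be split, were lower with them, while 10 of the 14 heat shock genes lay within 1.5-fold. In the NF-kB pathway the feedback genes Nfkbiz (-1.32), Nfkbia (-1.10) and Tnfaip3 (-0.91) were lower and Rel (0.62) was higher, with 14 of 18 members within 1.5-fold.

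S100, annexin and galectin genes, which bind calcium, membranes and sugars and mark tissue-effector T cells, had 13 of 16 members lower and 0 higher (median -1.55). They summed to 2.59% of NCD counts, 0.818% of HFD counts and 2.37% of WT counts. Besides Anxa1 and Lgals3, the nuclear lamin Lmna was at 370 and 43.8 CPM (-3.08), S100a6 at 4803 and 880 CPM (-2.45), S100a4 at 2091 and 513 CPM (-2.03) and the filament gene Vim at 4511 and 1151 CPM (-1.97). Anxa2 (0.25), Anxa6 (-0.51) and S100a13 (-0.52) stayed within 1.5-fold.

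**Figure D3:**
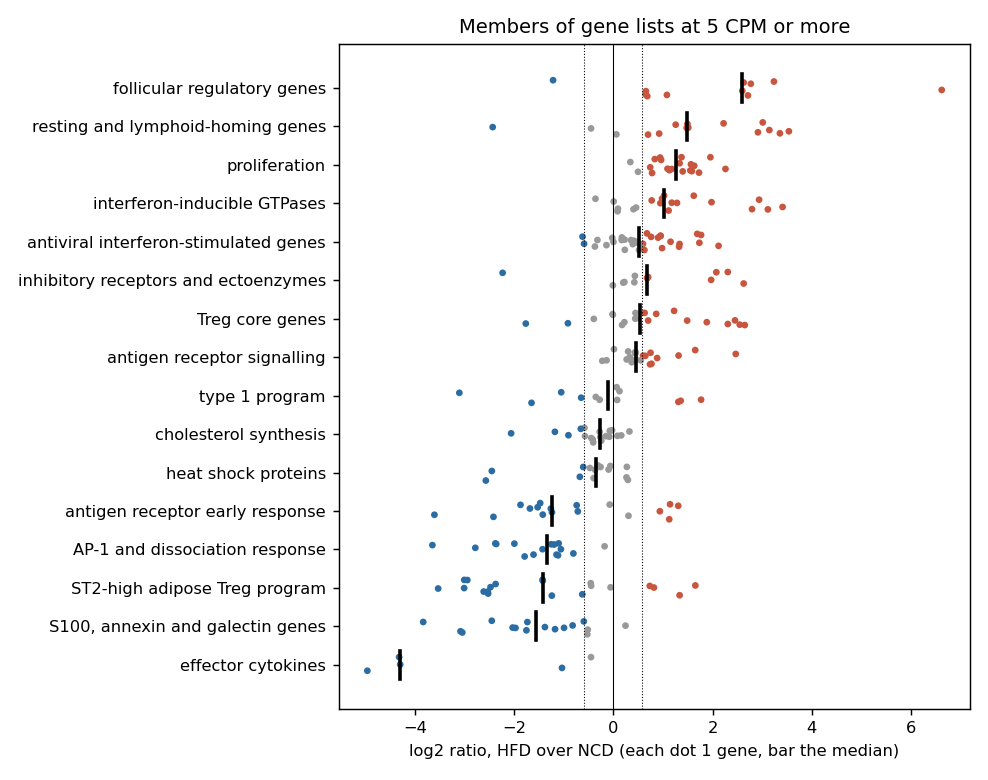
Log2 ratios of HFD over NCD (horizontal axis) for the members at 5 CPM or more of 16 gene lists (rows). Dots are genes, red or blue where they passed 1.5-fold (dotted lines) and grey otherwise, and black bars are medians, which run from -4.29 for effector cytokines to 2.60 for follicular regulatory genes.

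Interferon-inducible GTPases, which attack vacuoles of intracellular microbes, had 13 of 19 members higher in HFD and 0 lower (median 1.02). Promoters were matched for 10 of the 19 genes of the list, and those of 3 members are shown because 9 of the 10 share a string of letters. The string has the form of an interferon response element. It was searched on both strands as GAAA, any 2 bases and GAAA again, and is marked in capitals. Promoters of the other members were not searched. They run from 250 bases before to 50 after the start site, taken from RefSeq in GRCm38.p6, on the plus strand of chr11:58199306-58199605 (Igtp), chr3:142620413-142620712 (Gbp2) and chr3:142496684-142496983 (Gbp5).
Igtp: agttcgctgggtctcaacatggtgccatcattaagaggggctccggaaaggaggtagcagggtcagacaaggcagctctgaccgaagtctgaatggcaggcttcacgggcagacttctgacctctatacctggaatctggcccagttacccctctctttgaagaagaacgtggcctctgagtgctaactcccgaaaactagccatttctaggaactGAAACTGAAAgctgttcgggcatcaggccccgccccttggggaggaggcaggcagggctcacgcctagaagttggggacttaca
Gbp2: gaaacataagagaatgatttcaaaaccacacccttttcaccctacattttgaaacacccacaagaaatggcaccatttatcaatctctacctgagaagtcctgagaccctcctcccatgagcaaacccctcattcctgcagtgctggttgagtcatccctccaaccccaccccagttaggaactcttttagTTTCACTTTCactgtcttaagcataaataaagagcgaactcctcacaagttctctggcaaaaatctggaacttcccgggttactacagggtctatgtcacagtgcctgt
Gbp5: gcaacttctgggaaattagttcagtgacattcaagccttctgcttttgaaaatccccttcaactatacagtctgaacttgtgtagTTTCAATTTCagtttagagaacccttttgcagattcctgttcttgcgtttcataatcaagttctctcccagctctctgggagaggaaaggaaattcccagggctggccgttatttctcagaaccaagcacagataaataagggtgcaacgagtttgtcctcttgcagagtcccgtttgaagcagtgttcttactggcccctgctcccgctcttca

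The motif was in 9 of the 10 promoters matched for this list, in 17 of 30 matched for antiviral interferon-stimulated genes and in 0 of 12 matched for the resting list, against 3.49% of 27025 promoters. Such a match describes letters in this window and no binding. Igtp, a GTPase of the IRG family, was at 46.6 CPM on chow and 92.2 CPM on HFD (0.98, interval 0.87 to 1.10). The guanylate-binding proteins Gbp2 and Gbp5 were also higher, Gbp2 at 32.7 and 66.6 CPM (1.02) and Gbp5 at 34.0 CPM in HFD (1.28). Higher ratios belonged to Iigp1, at 6.17 and 65.9 CPM (3.41, interval 3.16 to 3.68), Gm4951 (3.12), F830016B08Rik (2.94) and Tgtp1 (2.80), several of which have near-identical copies among which reads may be split. Gbp4 (-0.36), Gbp6 (0.01), Gbp7 (0.09) and Gbp8 (0.09) lay within 1.5-fold, so the motif of Gbp7 stood beside nearly equal levels. A UMI of Iigp1, Tgtp1 or Igtp was found in 9.14% of thinned NCD cells (8.32 to 10.0) and 26.2% of thinned HFD cells (24.8 to 27.7).

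Antiviral interferon-stimulated genes were higher in 15 of 33 members and lower in 2, Cmpk2 (-0.62) and Ifi206 (-0.59), at a median of 0.52. Rtp4 was at 6.08 and 26.5 CPM (2.12), Oas1a, a sensor of double-stranded RNA, stood at 1.74, Usp18, which limits interferon receptor signalling, at 1.69 and the helicase Ifih1 at 1.34. Ifit1 (0.60) and Isg15 (0.52) lay near the bound, on either side of it. Of the interferon receptors, Ifngr1 stood at -0.35 and Ifnar1 at 0.17, and only Socs3 (higher) and Irf8 (-1.18) of the 13 receptor and control genes passed 1.5-fold. In antigen presentation by MHC class I, the proteasome subunits Psmb10 (1.22) and Psmb9 (0.63) were higher and H2-D1 (-0.82) and H2-Q7 (-0.61) lower, of 16 genes. The other 12 lay within 1.5-fold and the median was -0.01. These shares are near those over all 10024 genes, of which 12.4% were higher and 9.39% lower.

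Proliferation genes were higher in HFD in 18 of 20 members with 0 lower (median 1.26). Thymidine kinase (Tk1) was at 5.99 CPM on chow and 28.8 CPM on HFD (2.26), the ribonucleotide reductase subunit Rrm2 at 13.1 and 51.0 CPM (1.96), Birc5 at 14.9 and 49.3 CPM (1.73), and Mki67, which marks cycling cells, at 38.2 and 81.6 CPM (1.09). A UMI of Mki67 or Top2a was found in 3.87% of thinned NCD cells (3.33 to 4.46) and 6.16% of thinned HFD cells (5.41 to 6.97). Of 20 survival and apoptosis genes 6 were higher, Fas and Bcl2 among them, and 3 lower, including Bcl2l1 (-1.19).

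The study's title concerns cholesterol, and genes of cholesterol synthesis were lower in HFD for 4 of 19 members and higher for 0 (median -0.27). The other 15 lay within 1.5-fold, in a comparison where 9.39% of all 10024 genes were lower and 12.4% higher. Sqle, squalene epoxidase, was at 10.8 CPM on chow and 4.75 CPM on HFD (-1.18), and at 16.8 CPM in WT against 0.608 CPM in KO. Nsdhl (-0.90) and Sc5d (-0.65) were lower as well. In the Srebf2 pool the KO cells had 12 of the 19 members lower than WT by 1.5-fold or more (median -0.70), where 1.32% of all 9822 genes were lower. NCD cells themselves lay below WT in 7 of 19 members (median -0.33), where 1.92% of 9778 genes were higher and 4.58% lower. Those 2 conditions come from different pools and mice, so the diet ratio starts from a lower level than WT.

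Srebf2, the factor that drives cholesterol synthesis, was at 67.6 CPM in NCD, 39.9 CPM in HFD (-0.76, interval -0.89 to -0.63) and 65.7 CPM in WT. Of the sterol uptake and control list, Tmem97 (-0.59) was also lower and lysosomal acid lipase (Lipa, 0.71) the single higher one, of 14. Sterol efflux and LXR targets had 4 of 11 higher, namely Scd2 (2.43), the cholesterol exporter Abca1, at 1.58 and 8.25 CPM (2.37, interval 1.85 to 2.96), Abcg1 (0.93) and Mylip (0.80), and 3 lower, Osbpl3 (-1.22), Lpcat3 (-0.86) and Nceh1 (-0.59). Of 9822 genes, 174 (1.77%) were higher in KO than WT and 130 (1.32%) lower. Genes higher in both HFD and KO numbered 100, which is 8.02% of the HFD list and 57.5% of the KO list. Genes lower in both numbered 51, which is 5.42% and 39.2%. In opposite directions there were 22 higher in HFD and lower in KO, which is 1.76% of the HFD list and 16.9% of the KO list. The reverse held for 13, which is 1.38% and 7.47%. Of all 10024 genes of the diet comparison, 12.4% were higher and 9.39% lower in HFD.

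Genes of fatty acid uptake, storage and oxidation had 3 of 20 members higher, 5 lower and 12 within 1.5-fold, at a median of 0.03. Plin2, the coat protein of lipid droplets, was at 499 CPM on chow and 53.1 CPM on HFD (-3.23, interval -3.33 to -3.14), and Hilpda, which restrains lipolysis on droplets, at 674 and 140 CPM (-2.26). Dgat1 (-0.97) and Acadm (-0.72) were lower too, Dgat2 (1.26) was higher, and the fatty acid carrier Fabp4 (1.59) had 87.0% of its HFD UMIs in 5 cells. Elovl5, a fatty acid elongase, was lower (-0.94), while 7 of the 9 synthesis and desaturation genes lay within 1.5-fold. Receptors for lipid mediators divided into 5 higher and 5 lower of 14: Ptafr, Ltb4r1, Hpgds (-2.08), Ptgir (-2.05) and Ptgs1 (-2.04) against the prostaglandin E receptor Ptger2 (1.74), Gpr55, P2rx7 (1.65), Gpr183 and S1pr1.

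In nutrient sensing 5 of 25 genes were higher, 3 lower and 17 within 1.5-fold (median 0.11). Over all 10024 genes 12.4% were higher and 9.39% lower, so the list as a whole lay not far from that share. Besides Tbc1d4, the growth factor receptor Igf1r was at 14.9 CPM on chow and 72.3 CPM on HFD (2.28), while the insulin receptor Insr was at 20.1 and 24.6 CPM (0.29). Irs2, the adaptor of both receptors, was at 63.5 and 13.9 CPM (-2.19). Insr thus lay within 1.5-fold, with Igf1r above it and Irs2 below. Glycolysis genes had 5 of 17 higher and 0 lower (median 0.43), with Hk2 (2.76), Ldhb (0.96) and Tpi1 (0.91) leading. Metallothioneins Mt2 (-2.56), Mt1 (-1.93) and Mt3 (-1.33), which bind metals, were lower, with 14 of 19 oxidative stress genes within 1.5-fold. Ribosomal protein genes took 21.4% of NCD, 25.0% of HFD and 18.6% of WT counts, and 78 of 81 lay within 1.5-fold, as did 83 of 85 nuclear oxidative phosphorylation genes, of which Ndufa4 (1.40) and Ndufaf6 (0.62) were higher. Among effector transcription factors, Zeb2 (-2.83), Irf4 (-1.42) and Id2 (-1.24) were lower and Id3 (2.23), Bhlhe40 (2.00) and Epas1 (1.07) higher.

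The diets differ in how many cells carry Il1rl1, so the comparison was repeated within the 3855 NCD and 793 HFD cells with an Il1rl1 UMI and within the 1083 NCD and 3718 HFD cells without one. With the UMI, 1206 of 9886 genes (12.2%) were higher and 695 (7.03%) lower in HFD. Without it, 779 of 10033 genes (7.76%) were higher and 876 (8.73%) lower. A cell without an Il1rl1 UMI may still hold Il1rl1 RNA, and a cell with just 1 may owe it to free RNA. The NCD share with a UMI was 78.1% at full depth and 47.8% at 1000 UMIs. Cells without the UMI had medians of 3103 (NCD) and 3091.5 (HFD) UMIs, against 4221 and 3772 in cells with it. How far such missed cells shape the ratios without Il1rl1 was not tested. With HFD cells reweighted to the NCD share of cells with Il1rl1, 1064 (10.7%) were higher and 680 (6.85%) lower, and 891 of the 1247 higher and 603 of the 941 lower genes were among them. The ratios of several lists were smaller after reweighting. The median of the ST2-high program was -0.55 in place of -1.42, that of AP-1 and dissociation response genes -0.75 in place of -1.34, that of early response genes -0.57 in place of -1.24 and that of resting genes 0.86 in place of 1.49. Klrg1 stood at -1.28 and Cxcl2 at -1.10, whereas the median of proliferation genes was 1.29. As given above, cells of this class held fewer Il1rl1 UMIs each in HFD.

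Within cells with Il1rl1, 10 of 20 members of the ST2-high program were lower and 4 higher (median -0.50). Among the 10 is Il1rl1, on which the class is defined, and without it 9 of 19 were lower and 4 higher (median -0.41). In cells without an Il1rl1 UMI 12 of 19 were lower and 2 higher (median -1.04). Klrg1 had log2 ratios of -1.16 and -3.62 in these classes, and Pparg of -1.74 and -2.44. S100, annexin and galectin genes had 13 of 16 and 12 of 16 members lower (medians -1.10 and -1.05). AP-1 and dissociation response genes had 8 and 13 of 16 lower (medians -0.69 and -0.99). Resting genes were higher in 10 of 14 and 8 of 15 (medians 0.92 and 0.72), and Tcf7 stood at 2.98 and 1.21. Interferon-inducible GTPases were higher in 13 and 9 of 19 (medians 0.67 and 0.53) and lower in 1 and 0, and proliferation genes were higher in 18 and 19 of 20 (medians 1.15 and 1.97). The medians of these lists had the same sign in both classes, though the class without a UMI can hold cells whose Il1rl1 RNA was missed.

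The lowest genes among cells with Il1rl1 included Il5 (-3.04), Csf2 (-3.03), Egr1 (-3.01), Wipf3 (-2.75), Hspa1b (-2.51) and the haemoglobin gene Hbb-bs (-4.92), whose UMIs sat almost wholly in 5 cells per diet. The highest were Ttn (4.07), Itgae (3.66), Aff3 (3.63), Iigp1 (3.49), Gramd3 (3.40) and Tbc1d4 (3.32). Several core and costimulatory genes differed more in this class than over all cells: Icos stood at 1.91, Tnfrsf9 at 2.12 and Lrrc32 at 3.24. Ms4a4b stood at 2.31 with Il1rl1 and 0.20 without. These are ratios side by side, and the difference between the classes was not tested. Of the cells with Il1rl1, 14.9% in NCD and 39.3% in HFD held just 1 Il1rl1 UMI, which free RNA can give. How far such cells shape the ratios of single genes in this class was not tested.

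**Figure D4:**
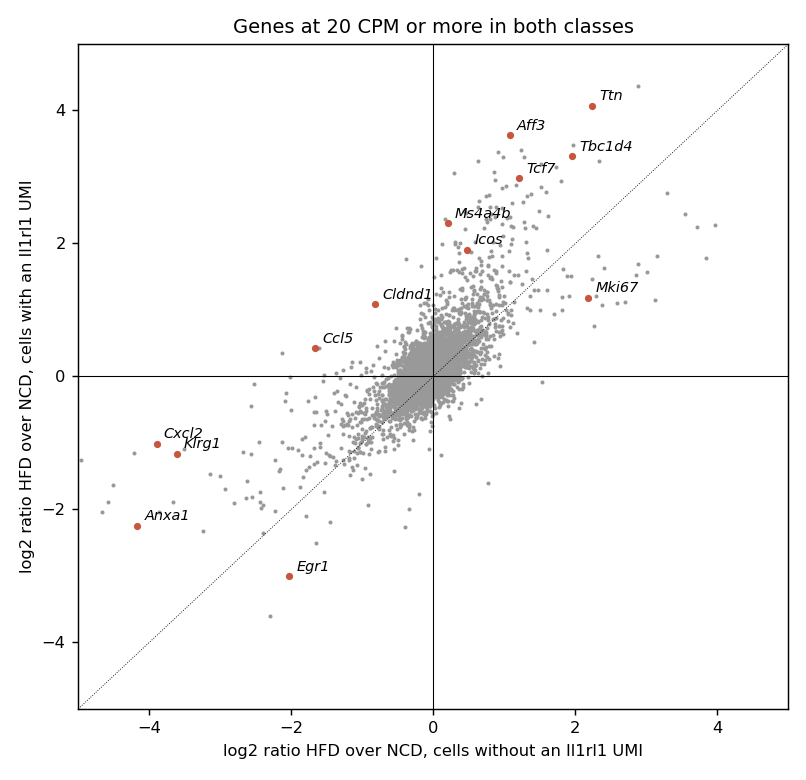
Log2 ratio of HFD over NCD in cells with an Il1rl1 UMI (vertical axis) against that in cells without one (horizontal axis), for genes at 20 CPM or more in both classes, Il1rl1 left out; 6190 of 6196 genes lie within the axes. The dotted line marks equal ratios, Klrg1, Anxa1 and Egr1 lie at the lower left, Tbc1d4 and Ttn at the upper right, and Cldnd1 and Ccl5 at the upper left.

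Among cells without Il1rl1, the lowest were Ncr1, AA467197 (-6.17), Cyp11a1 (-6.06), Wipf3 (-6.02), Olfr1259 (-5.53) and 1700061F12Rik (-5.44). The highest were Col3a1, Hbb-bt and Hbb-bs, whose UMIs sat almost wholly in 5 cells per diet, and then Sostdc1 (4.71). Sostdc1 also rested on few cells, as 47 HFD cells held it and 39.6% of its HFD UMIs were in 5 of them. The histone genes Hist1h2ap (3.97) and Hist1h1b (3.84), of dividing cells, came next. Ncr1, a receptor of natural killer (NK) cells, had 116 UMIs in 24 NCD cells and 0 in HFD, at least 32.3-fold lower against a floor of 3 UMIs in the HFD sum. The type 1 program was lower in this class in 8 of 13 members and higher in 1 (median -0.85), against 3 lower and 3 higher of 12 (median 0.30) in cells with Il1rl1. Without it, Gzmb stood at -2.93, Nkg7 at -2.02, Ccl5 at -1.66 and Tbx21 at -1.61. The 5 NK or ILC1 markers summed to 13.9 CPM on chow and 2.27 CPM on HFD over all cells. Without cells that held a UMI of any of 22 genes taken as markers of other cell types, the type 1 median in this class was -0.63. That filter fell unequally on the diets, as 19.5% of all NCD and 35.9% of all HFD cells held such a UMI. Pecam1 alone had one in 424 NCD and 1140 HFD cells, so cells other than the intended types can be lost.

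T cell receptor segments differed in how evenly they were used. A Trbv segment was assigned to 4244 NCD and 4108 HFD cells by the segment with the most UMIs. The effective number of Trbv segments, the number of equally used segments that would give the same concentration, was 9.12 in NCD and 14.9 in HFD. Trbv31 was carried by 15.7% of NCD cells (14.6 to 16.8) and 6.28% of HFD cells (5.56 to 7.07), and Trbv5 by 15.4% and 6.65%. Trbv19 was carried by 2.90% of NCD and 7.74% of HFD cells, and Trbv12-1 by 0.353% and 3.60%. The 3 most used segments covered 50.4% of NCD and 31.2% of HFD cells. For Trav, whose segments include near-identical copies, the effective numbers were 18.2 and 49.9. Among cells with Il1rl1 the Trbv number was 8.04 in NCD and 14.3 in HFD, and among cells without it 13.9 and 14.9. Each diet joins 5 mice, and how many of them carried a segment was not analysed here.

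**Figure D5:**
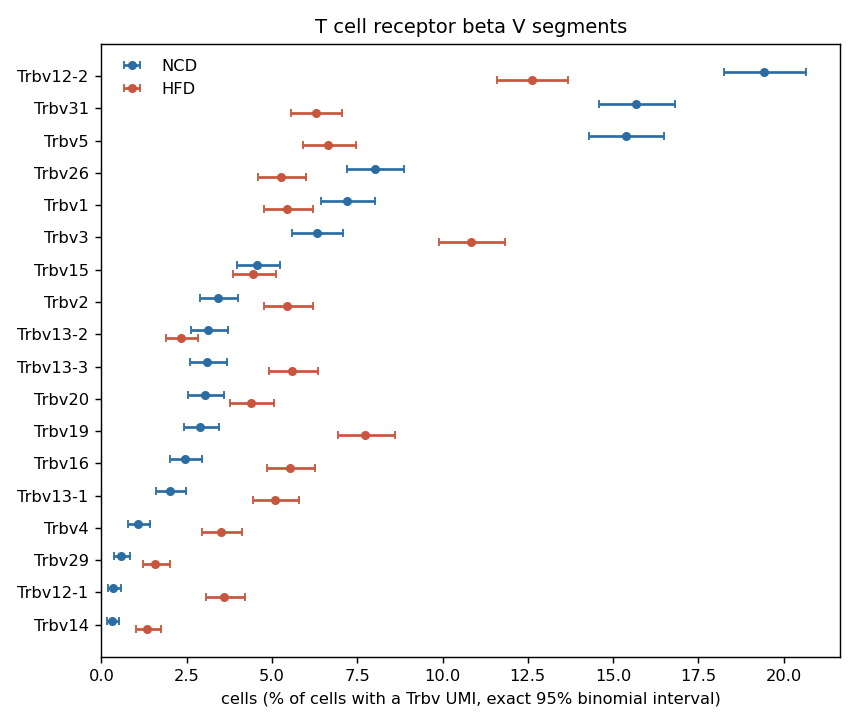
Share of cells assigned to each beta V segment (horizontal axis, % of cells with a Trbv UMI) for segments at 1% or more in either diet, with exact 95% binomial intervals for counting error; blue is NCD, red HFD. Trbv12-2, Trbv31 and Trbv5 lead in NCD at 15.4% to 19.4%, and the HFD shares lie closer together.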

How the data were processed

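Visceral adipose Treg cells were measured by droplet 5′ single-cell RNA sequencing. The values the authors deposited are unnormalized UMI counts, with hashtag counts as further rows. Per the file headers they came from Cell Ranger 7.0.1 for the diet pool and 7.1.0 for the Srebf2 pool, and per the submitters' processing notes from 7.0.1 on mm10. The gene names come from the files, and 18415 of 20899 genes matched a RefSeq location by gene ID or, where the ID was not found, by symbol.

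Here counts were summed over the cells of each diet, given as CPM and compared as log2 ratios with 0.5 counts added to each sum (Python 3.11.15, numpy 2.4.6, scipy 1.17.1, pandas 2.3.3). Ratios carry exact intervals from the binomial split, levels exact Poisson intervals and shares exact binomial (Clopper-Pearson) intervals, at 95%, for counting error only. The limit given for a share of 0 is instead a floor of 3 counts over the cells. A gene was called by size, at 1.5-fold and 5 CPM in the higher diet. Thinning drew 2000 UMIs per cell without replacement. B cells for the background had 2 or more Cd79a UMIs, a Cd79b or Ms4a1 UMI and no Cd3 UMI. Barcodes with mixed hashtags were left out, which removes doublets between diets but not those within 1 diet. The ratio was tested on simulated data.

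Genes were named by rule: the 15 highest and 15 lowest at 20 CPM, the 10 highest and lowest at 500 CPM, up to 6 members farthest from equal per gene list (42 lists), the 6 highest and lowest within each Il1rl1 class, and 16 genes always reported, with members beyond these named to complete a count. Antigen receptor segments and immunoglobulin genes were left out of the 15 highest and 15 lowest. The members and lists were chosen with earlier results of these data known. Scaling by TMM used edgeR 4.0.16. Alternatives covered scaling, filters, fold, cell selection and depth. Some genes that the rule would name are not reported here.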

Additional observations from a re-analysis of the deposited data

Results flagged for a closer look

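Cldnd1 was higher in HFD among cells with an Il1rl1 UMI, at 74.6 CPM on chow and 158 CPM on HFD (log2 ratio 1.08, interval 0.94 to 1.22), and lower among cells without one, at 182 and 104 CPM (-0.82, interval -0.95 to -0.68). Trav7-3, an alpha V segment, was lower with Il1rl1 (-1.60) and higher without it (0.77). These were the 2 genes at 20 CPM or more in both classes that passed 1.5-fold in opposite directions, apart from Hbb-bs, whose UMIs sat in a few cells. The difference between the classes was not tested.

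Barcodes with a Cd8a UMI, which the rule leaves out, made up 1.65% of HFD-tagged barcodes (81 of 4898, interval 1.32 to 2.05) and 0.610% of NCD-tagged barcodes (34 of 5572, interval 0.423 to 0.852). They enter no comparison above.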

How the results depend on the processing

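No paired analysis was possible because each diet is 1 pool and no test was made. The counts of 1247 higher and 941 lower genes stayed within 1.5 times under scaling by median of ratios (1074 and 1085), by TMM (1072 and 1086) or without ribosomal and mitochondrial counts (1583 and 916). Strictly selected cells, without a UMI of any of the 22 marker genes, gave 1174 and 922. The counts also stayed within 1.5 times with cells weighted equally, with Foxp3-positive, purer, 1000-gene or thinned cells, and after reweighting. They moved to 628 and 530 at 20 CPM, 5409 and 4154 with no level filter, 2364 and 1584 with the lower fold bound tried, and 667 and 538 at 2-fold. At 20 CPM the counts within cells with Il1rl1 were 585 and 326, and without it 344 and 379 (an alternative chosen after seeing the data). A gate of 2 Il1rl1 UMIs, also added, gave 1223 and 695.

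The share of NCD cells with an Il1rl1 UMI moved to 78.1% without thinning, 47.8% at 1000 UMIs, 70.8% in cells with Foxp3 and 44.2% at 2 UMIs. The HFD share moved to 17.6%, 8.92%, 17.8% and 6.82% under the same choices, and to 16.5% under strict exclusion. Of 504 list medians under alternatives 98 moved by over 0.1, and of 160 ratios of the 16 always reported genes 62 moved beyond their counting interval. Among those past 1.5-fold, 0 changed sign. Scaling moved the median of all genes from 0.08 to 0.00. The limits are 1 pool per diet, depth that differs between diets, and free RNA that reaches single UMIs.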

Other observations

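Ighm, the constant region gene of IgM, was at 81.7 CPM on chow and 251 CPM on HFD and had a UMI in 861 NCD and 2281 HFD cells, while the B cell gene Ms4a1 had 12 UMIs in NCD and 2 in HFD. Pecam1 was at 24.3 and 88.8 CPM, in 424 and 1140 cells, while the endothelial genes Cdh5 and Kdr were each below 1 CPM in both diets. Over 9584 genes tested in both pools, the log2 ratios of HFD over NCD and of KO over WT had a Pearson r of 0.33 and a Spearman rho of 0.29 across genes, which are not independent replicates and share base composition and gene length. Igkv6-13 was at 411 CPM on chow and 0.431 CPM on HFD, in 18 and 8 cells. Jchain, of antibody-secreting cells, had 95.4% of its NCD UMIs in 5 cells.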
